A study of Mus musculus with 36 samples.

Results

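The 9 genes described here were Trp53, which encodes the transcription factor p53, and 8 genes that p53 is known to switch on: Cdkn1a, Mdm2, Phlda3, Ccng1, Eda2r, Aen, Trp53inp1 and Sesn1. They were taken by gene symbol from the gene count table of the study, where each symbol matched 1 of 55487 genes, and they were followed across all 36 RNA-seq libraries. The libraries came from unmyelinated optic nerve (UON), the short stretch behind the eye where glia do not wrap axons in myelin, from myelinated optic nerve (MON) and from retina of C57BL/6 mice aged 2 to 4 months. Mice were naïve, had received unilateral optic nerve crush and were collected at 3 days (3D) or 2 weeks (2W), or had received microbeads in the anterior chamber of 1 eye as a model of glaucoma (glaucoma groups) and were collected at 3D, 2W or 6 weeks (6W). Each tissue and condition was represented by 2 libraries, a pool of 2 female and a pool of 2 male mice, and the same animals gave all 3 tissues. RNA of the mice in a pool was mixed in equal amounts, so that p-values measure the spread between pools and not between single mice.

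The protein p53 is kept at a low level in unstressed cells because Mdm2, itself a p53 target, tags it for destruction. DNA damage, axon injury and other stresses interrupt this loop, p53 accumulates, and target genes that halt the cell cycle, trigger cell death or restrain growth are transcribed. Most of this control acts on the protein, so that the RNA of Trp53 itself need not move when p53 becomes active. In the optic nerve and retina the pathway is best known for its link to the death of retinal ganglion cells after injury, and it is also used by glia and by any cell that divides.

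Sequence upstream of the members was examined first, because a p53 target is defined by p53 binding nearby. RefSeq promoter windows of 250 bases before the transcription start (GRCm38.p6) existed for 8 of the 9 members and gave 11 starts, since some members have more than 1. Each window was searched on both strands for the p53 consensus decamer, a motif of 10 bases that reads the same on both strands, and for a pair of adjoining decamers (20 bases) with at most 2 mismatches and intact cores, the arrangement to which a p53 tetramer binds. The decamer was present in 6 of the 11 windows (54.5%), against 7.13% of 32851 promoter windows of the same length. The adjoining pair was present in 2 of the 11 (18.2%), against 0.271% of all windows. The 4 windows printed here belong to the members with paired decamers and to the gene with the highest naïve level in the nerve, and they are written 5′ to 3′, with capitals marking the decamers and paired decamers found. The upstream start of Cdkn1a (chr17:29090729-29090978, plus strand) held a pair whose 5′ end lay 51 bases before the start, with 1 mismatch, and a separate decamer at 73 bases. The downstream start of Cdkn1a (chr17:29093519-29093768, plus strand), 2790 bases further on, held neither within its own window. The pair of the upstream window also lies upstream of this start, but outside its window. Ccng1 (chr11:40755287-40755536, minus strand) held a pair at 195 bases before its start, with 1 mismatch. Phlda3 (chr1:135765835-135766084, plus strand), the gene with that highest level, held neither within this window, which says nothing about sites elsewhere in the gene.
Cdkn1a, upstream start: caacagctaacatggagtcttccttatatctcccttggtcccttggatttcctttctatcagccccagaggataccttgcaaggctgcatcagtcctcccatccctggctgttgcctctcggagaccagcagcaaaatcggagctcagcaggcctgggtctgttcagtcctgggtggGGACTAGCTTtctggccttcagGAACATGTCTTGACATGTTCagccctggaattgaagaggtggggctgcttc
Cdkn1a, downstream start: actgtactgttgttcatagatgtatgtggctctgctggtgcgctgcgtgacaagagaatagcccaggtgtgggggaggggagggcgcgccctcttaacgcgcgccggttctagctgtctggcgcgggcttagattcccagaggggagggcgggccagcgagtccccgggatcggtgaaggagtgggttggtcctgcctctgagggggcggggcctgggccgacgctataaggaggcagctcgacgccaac
Ccng1: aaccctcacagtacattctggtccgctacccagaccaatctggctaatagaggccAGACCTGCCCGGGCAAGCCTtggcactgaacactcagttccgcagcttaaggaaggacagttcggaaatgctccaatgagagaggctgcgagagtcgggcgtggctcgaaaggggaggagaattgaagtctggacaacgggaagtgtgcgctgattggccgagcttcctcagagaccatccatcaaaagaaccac
Phlda3: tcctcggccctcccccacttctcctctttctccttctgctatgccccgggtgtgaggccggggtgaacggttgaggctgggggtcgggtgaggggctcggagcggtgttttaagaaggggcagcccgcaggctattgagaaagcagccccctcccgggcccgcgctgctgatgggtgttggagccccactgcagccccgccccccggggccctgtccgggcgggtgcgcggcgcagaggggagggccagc

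The remaining decamers were in the windows of Trp53, Mdm2, 1 start of Aen and 1 start of Sesn1, and none of these 4 windows held the pair. Trp53inp1 was not matched. In the GRCm38 annotation Trp53 lies at chr11:69580359-69591873 on the plus strand, Mdm2 at chr10:117688875-117710758 on the minus strand, Eda2r at chrX:97333840-97377216 on the minus strand, Aen at chr7:78895854-78911209 on the plus strand, Trp53inp1 at chr4:11156431-11174379 on the plus strand and Sesn1 at chr10:41809935-41908424 on the plus strand. Cdkn1a (chr17:29090976-29100727, plus strand) shares 1046 bases with an annotated transcript on the opposite strand, AC167363.2, and Sesn1 shares 2584 bases with 9930024M15Rik on its own strand. Strand use in the counting was not given in the sources used here, so reads in these shared stretches cannot be assigned with certainty.

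Library totals ranged from 16.2 to 78.1 M estimated counts. The naïve MON pools lay near these limits, at 17.8 M for the male and 78.1 M for the female pool. Marker sums of the naïve pools were ordered as the labels name the tissues, but UON was not free of oligodendrocyte markers. In naïve pools the summed level of 6 photoreceptor markers was 57900 to 58100 CPM (counts scaled to library size) in retina and 19 to 150 CPM in nerve. That of 7 oligodendrocyte markers was 44200 to 63400 CPM in MON, 6240 to 8040 CPM in UON and 46.2 to 49 CPM in retina. The 6 astrocyte markers summed to 22500 to 25800 CPM in UON, 10900 to 16400 CPM in MON and 302 to 312 CPM in retina. The 6 fibroblast markers summed to 2480 to 2760 CPM in UON, 368 to 628 CPM in MON and 7.5 to 8.15 CPM in retina. The purity of the dissections was not tested. Injured UON pools varied more. Their oligodendrocyte sum ran from 1430 (2W of crush) to 16200 CPM (3D after beads). Their photoreceptor sum ran from 11.6 (2W of crush) to 338 CPM (2W after beads). CPM values were scaled by trimmed means (TMM) over all 36 libraries and compare libraries for the same gene. FPKM values, which are also scaled by gene length, as deposited, were used to compare genes.

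The first comparison asked how strongly each tissue transcribes the p53 genes before injury. On the FPKM scale Phlda3, whose product holds back the kinase Akt at the membrane, was the most abundant member in both parts of the nerve, at 105 ± 0.388 FPKM in UON and 105 ± 11.2 in MON (mean ± SD, n = 2 pools throughout), against 5.08 ± 0.0687 in retina. Sesn1, a sestrin that restrains mTORC1 signalling, followed in UON at 46.5 ± 7.30 FPKM and led in retina at 26.7 ± 0.925, with 22.7 ± 4.36 in MON. Cdkn1a, which encodes the cyclin-dependent kinase inhibitor p21, stood at 22.8 ± 2.18 FPKM in UON, 32.3 ± 7.06 FPKM in MON and 4.28 ± 0.257 in retina. In the order of the 9 members Phlda3 ranked 1 in both nerve regions and 6 in retina, and Cdkn1a ranked 4 in UON, 2 in MON and 7 in retina.

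The other members covered a narrower range. Ccng1, which encodes cyclin G1, was at 26.7 ± 1.53 FPKM in UON, 19.5 ± 7.26 FPKM in MON and 20.3 ± 1.08 in retina. Mdm2, the ubiquitin ligase that limits p53, was at 13.8 ± 1.29, 18.4 ± 7.06 and 19.6 ± 3.85 FPKM in the same order. Trp53 was at 13.6 ± 0.383, 10.2 ± 1.37 and 7.18 ± 0.629 FPKM, and Aen, a nuclease that acts in cell death, at 14.0 ± 2.62, 7.98 ± 1.10 and 5.93 ± 3.86. Trp53inp1, a stress-induced nuclear protein, was low throughout at 2.93 to 4.03 FPKM. Eda2r, a receptor of the tumour necrosis factor receptor family, was the lowest member in every tissue, at 0.223 ± 0.0693 FPKM in UON, 0.494 ± 0.144 FPKM in MON and 0.0662 ± 0.0402 in retina. Several neighbours in these orders were not separated by their pools: Aen, Mdm2 and Trp53 in UON, Sesn1, Ccng1 and Mdm2 in MON, and Ccng1 and Mdm2, Trp53 and Aen, Aen and Phlda3, and Cdkn1a and Trp53inp1 in retina. Summed over the 9 members, FPKM was 243 to 249 in UON, 219 to 220 in MON and 87.4 to 98.9 in retina. Phlda3 alone, with means of 105, 105 and 5.08 FPKM, weighs heavily in these sums. They are not scaled by TMM, so differences between tissues are read from the CPM tests below.

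**Figure D1:**
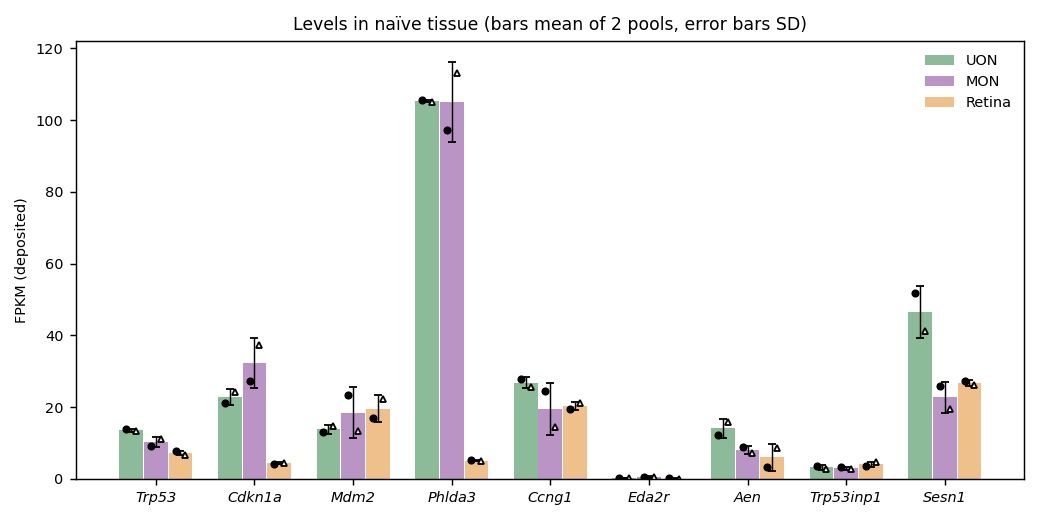
Deposited FPKM of the 9 members in naïve UON, MON and retina, with bars for the mean of 2 pools, error bars for the SD, circles for female and triangles for male pools. Phlda3 and Cdkn1a lie far lower in retina than in both nerve regions, whereas Mdm2, Ccng1 and Trp53inp1 differ less between the 3 tissues.

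Between naïve UON and retina, 5 of 9 members were higher in UON and none was lower by edgeR's quasi-likelihood test (called at an adjusted p below 0.05 together with a change of more than 1 on the log2 scale). Over all genes tested, 31.7% were called in either direction and 18.2% were higher in UON. Phlda3 had 183 and 199 CPM in the female and male UON pools and 7.14 and 6.83 CPM in the retina pools, a log2 fold change of 4.73 (SE 0.228, edgeR adjusted p = 2.5e-05). Cdkn1a had 44.4 and 54.7 CPM in UON and 6.91 and 7.61 CPM in retina, a log2 fold change of 2.72 (SE 0.219, edgeR adjusted p = 0.000109). The pools of these genes were far apart between tissues and close within them.

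The remaining 3 calls were smaller or less even. Sesn1 had 193 and 166 CPM in UON and 68.6 and 71.1 CPM in retina, which differ by 1.31 on the log2 scale (SE 0.249, edgeR adjusted p = 0.00587). Trp53 had 31.5 and 30.9 CPM in UON and 13.3 and 11.6 CPM in retina, which differ on the log2 scale by 1.29 (SE 0.249, edgeR adjusted p = 0.00631). Each of these calls was lost in 1 of 4 fits that left out a pool: without the female retina pool Sesn1 had an adjusted p of 0.0517, and without the male retina pool Trp53 had an adjusted p of 0.0538. Aen had 63.4 and 59.6 CPM in UON but 6.27 and 26.1 CPM in retina, so that its log2 fold change of 2.08 (SE 0.549, edgeR adjusted p = 0.0236) became 1.13 without the female and 3.33 without the male retina pool, called in both cases. The female naïve retina pool stood apart for Aen also from the 10 injured retina pools, which had 21.3 to 29.6 CPM.

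The other 4 members were not called between UON and retina. Ccng1 had a log2 fold change of 0.77 (adjusted p = 0.0712 by edgeR) and Eda2r of 2.21 (adjusted p = 0.119), both with UON pools above retina pools. Mdm2 (-0.07, 95% interval -1.55 to 1.40) and Trp53inp1 (0.08, 95% interval -1.25 to 1.41) had overlapping pools and intervals, taken on the 2 residual degrees of freedom, that span differences beyond 2-fold in either direction. In all, both UON pools lay above both retina pools for 7 of 9 members, against 36.4% of the genes tested.

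Between naïve MON and retina, 2 of 9 members were called by edgeR, against 27.6% of genes tested, and both were higher in MON. Phlda3, with 196 and 199 CPM in MON, had a log2 fold change of 4.82 (SE 0.229, edgeR adjusted p = 2.97e-05). Cdkn1a, with 67.8 and 86.8 CPM, had a log2 fold change of 3.40 (SE 0.225, edgeR adjusted p = 6.3e-05). DESeq2, which called 34% of genes here, called Eda2r and Aen as well, which edgeR placed at adjusted p of 0.0631 and 0.0744. Trp53 passed the p limit but not the fold limit (log2 fold change 0.90, adjusted p = 0.0314 by edgeR). The 2 nerve regions were both compared with the same 2 retina pools, so that these 2 sets of values are not independent.

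Between the 2 nerve regions only Sesn1 was called, 1 of 9 members against 9.63% of genes tested. It was higher in UON (193 and 166 CPM) than in MON (106 and 61.2 CPM), with a log2 fold change of 1.10 (SE 0.248, edgeR adjusted p = 0.0357). The call was kept in only 1 of 4 fits that left out a pool, with log2 fold changes of 0.79 to 1.5 and adjusted p of 0.0137 to 0.134. It was lost without either UON pool or without the male MON pool. Cdkn1a was lower in both UON pools than in both MON pools but was not called (log2 fold change -0.68, adjusted p = 0.0874 by edgeR). Phlda3 differed by -0.09 on the log2 scale, with a 95% interval of -0.92 to 0.75 on 2 residual degrees of freedom.

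The deposited transcript table allowed a look at which Cdkn1a start was counted. The shares below are StringTie estimates from short reads and are given as a description. Transcript Cdkn1a-201, which begins at the downstream start without a decamer in its window, held a median of 83.0% of the gene's counts in UON, 87.8% in MON and 91.4% in retina (12 libraries each). The paired decamers lie upstream of this start as well, so the shares do not tell how much of the RNA depends on p53. Transcript Cdkn1a-202, which begins at the upstream start with the paired decamers, held a median of 10.2% in UON (range 3.39 to 19.8%) and 5.70% in MON (0 to 11.9%). In retina it was estimated at 0 in 8 of 12 libraries and reached at most 7.26%. Sesn1 also has 2 starts, and its upstream transcript Sesn1-202 held a median of 36.2% in UON, 31.5% in MON and 9.74% in retina. For Sesn1 the naïve pools disagreed widely, with 0.509% in the female and 33.4% in the male retina pool, and 36.6% and 2.46% in the MON pools.

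**Figure D2:**
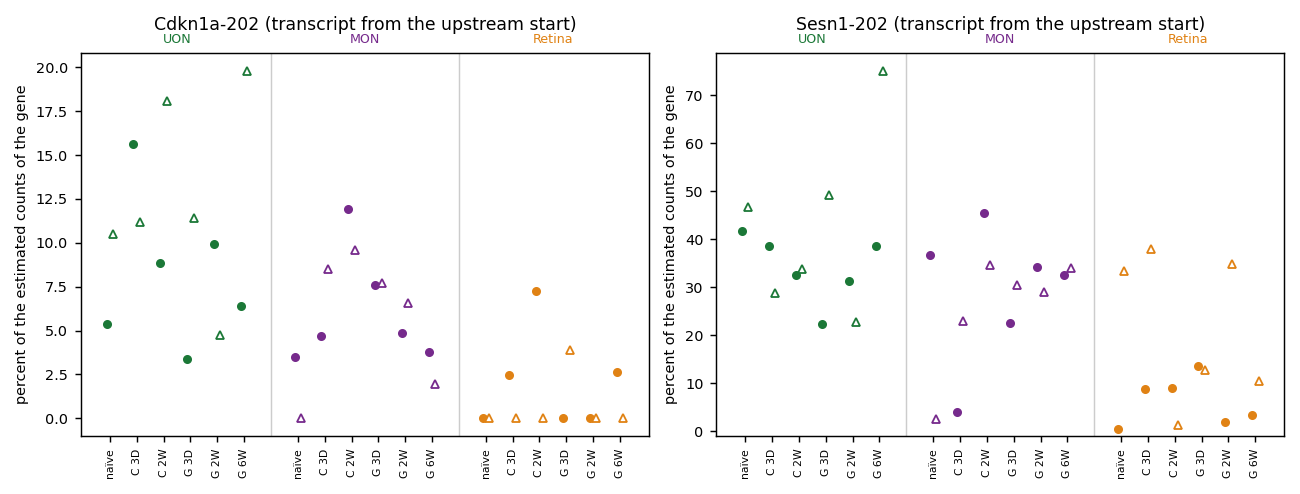
Estimated share of the gene's counts held by the upstream transcripts Cdkn1a-202 and Sesn1-202, in percent, with each point a library (circles female, triangles male pools; C crush, G glaucoma) and the libraries grouped by tissue. Retina has 8 of 12 libraries at 0 for Cdkn1a-202, whereas in UON all 12 libraries lie above 0.

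The second comparison asked whether crush or bead injection changed the members against naïve tissue. It gave 130 tests over 15 combinations of tissue, injury and time, since Eda2r was too low to be tested in retina. By edgeR 1 of the 130 tests was called, Trp53 in MON at 3D of crush. An unadjusted p under 0.05 was found in 27 tests, against 2.01% to 21% of all genes, and DESeq2 called 6. Of the 27, MON at 3D of crush held 6 of 9 (21% of all genes) and MON at 2W 5 of 9 (16%). UON held 2 of 9 at 3D and 2W of crush (3.07% and 9.27%). After beads, UON at 6W and retina at 2W and 6W held 0. The share of all genes called by edgeR differed strongly between combinations, from none in 8 of them to 4.26% in MON at 3D of crush (2.72% at 2W). It was 0.0281% in UON and 0.313% in retina at 2W of crush, 0.0221% in retina at 3D of crush, and 0.00429% and 0.00858% in retina at 3D and 6W after beads. In those 8 combinations 451 to 2017 genes had an unadjusted p under 0.05 and DESeq2 called 33 to 511. All comparisons within a tissue share its 2 naïve pools.

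**Figure D3:**
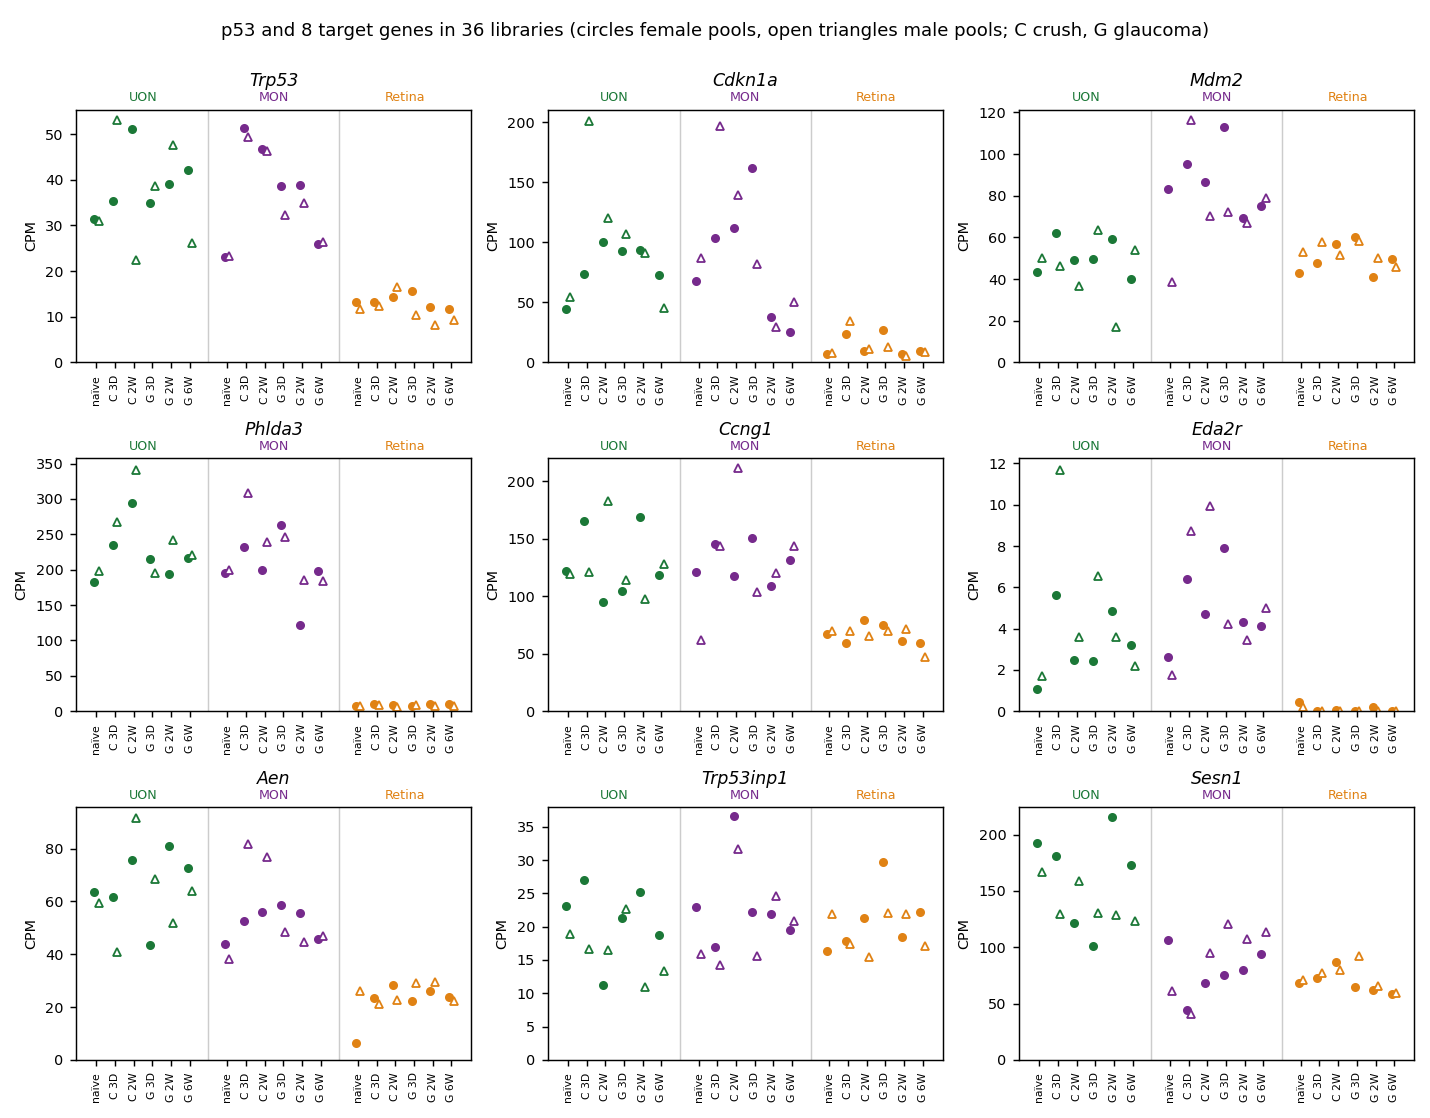
CPM of the 9 members in every library, by tissue, injury and time (circles female, triangles male pools; C crush, G glaucoma). Trp53 in MON lies at 23.0 to 23.2 in naïve pools and above that in all 10 injured pools (as do 2.99% of 30097 genes), and Cdkn1a in retina has its highest values at 3D.

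Trp53 in MON had 23.0 and 23.2 CPM in the naïve female and male pools, 51.4 and 49.3 CPM at 3D of crush and 46.7 and 46.3 CPM at 2W. The pools of each group were nearly equal, and the crush pools lay at about the same height at both times. At 3D Trp53 rose by 1.21 on the log2 scale (SE 0.260, edgeR adjusted p = 0.0482). At 2W the estimate was 1.05 (SE 0.260, edgeR adjusted p = 0.0865), which DESeq2 called (adjusted p = 0.0371) in a comparison where it called 8.93% of genes and edgeR 2.72%. The call at 3D stood just inside the threshold: leaving out any of the 4 pools gave log2 fold changes of 1.16 to 1.25 with adjusted p of 0.146 to 0.214. With size factors computed by the RLE method it was 1.16 (adjusted p = 0.0515).

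After bead injection Trp53 in MON had 38.7 and 32.2 CPM at 3D, 38.9 and 35.0 CPM at 2W and 26.0 and 26.5 CPM at 6W. Each of these pools lay above both naïve pools, as the crush pools did, a pattern over all injured MON pools found in 2.99% of 30097 genes. The log2 fold changes after beads of 0.58, 0.65 and 0.13 were not called (edgeR adjusted p of 0.58, 0.486 and 0.928). In UON Trp53 had 22.5 to 53.2 CPM in injured pools against naïve values of 30.9 and 31.5. Of the 10 injured UON pools 8 lay above both naïve pools and 2 below, and the 5 estimates were 0.11 to 0.53. In retina it had 8.24 to 16.5 CPM against naïve values of 11.6 and 13.3, with 3 injured pools above both and 3 below, and estimates of -0.33 to 0.27. None of these 10 tests reached an unadjusted p under 0.05.

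The lowest unadjusted p of any member after injury was that of Cdkn1a in retina at 3D of crush. It had 6.91 and 7.61 CPM in naïve pools and 23.9 and 34.6 CPM at 3D of crush, a log2 fold change of 2.01 (SE 0.192). This unadjusted p was 2.64e-05, but the edgeR adjusted p was 0.0574, above the threshold, in a comparison where only 5 of 22671 genes (0.0221%) were called. DESeq2, which called 0.633% of genes there, called Cdkn1a with an adjusted p of 1.18e-12. Leaving out 1 pool at a time gave 1.86 to 2.15 with adjusted p of 0.0264 to 0.0736, called in 2 of 4 fits. At 2W of crush the pools had 9.72 and 11.3 CPM (log2 fold change 0.49, adjusted p = 0.501 by edgeR).

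Retina after bead injection had 26.6 and 12.7 CPM of Cdkn1a at 3D, 6.94 and 4.94 CPM at 2W and 9.71 and 8.71 CPM at 6W. The 3D value, a log2 fold change of 1.36, was not called by edgeR (adjusted p = 0.615) and was called by DESeq2 (adjusted p = 0.0223), which called 0.669% of genes there. The bead pools at 3D differed from each other by more than the naïve pools did. Over the same crush interval the summed level of 8 retinal ganglion cell markers was 945 to 1040 CPM in naïve retina, 538 to 584 CPM at 3D and 116 to 133 CPM at 2W. In bulk tissue fewer cells of a type and less RNA per cell cannot be told apart, and the part of cell composition in the Cdkn1a values was not tested.

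In the nerve Cdkn1a was more variable between pools. In UON it had 44.4 and 54.7 CPM in naïve pools, 73.4 and 201 CPM at 3D of crush, 100 and 120 CPM at 2W of crush, 92.5 and 107 CPM at 3D after beads, 93.6 and 91.0 CPM at 2W and 72.8 and 45.6 CPM at 6W. In UON 9 of 10 injured pools lay above both naïve pools, against 2.37% of 30097 genes with 9 or 10 such pools, but the log2 fold changes of 0.24 to 1.35 had edgeR adjusted p of 0.496 to 1. The unadjusted p by edgeR was under 0.05 in 4 of these 5 comparisons. Over all genes edgeR called 6 in UON at 2W of crush and 0 in each other UON comparison. In MON it had 67.8 and 86.8 CPM in naïve pools, 104 and 197 CPM at 3D and 112 and 139 CPM at 2W of crush, with log2 fold changes of 0.99 (adjusted p = 0.0973 by edgeR) and 0.74 (adjusted p = 0.238). After beads the MON values were 162 and 81.9 CPM at 3D, 37.5 and 29.1 CPM at 2W and 25.6 and 49.98 CPM at 6W. The last 4 pools lay below both naïve pools, with log2 fold changes of -1.24 at 2W (edgeR adjusted p = 0.514) and -1.09 at 6W (adjusted p = 0.849), neither of which was called.

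Eda2r, although the least abundant member, lay above both naïve pools in all 10 injured pools of UON and in all 10 of MON. Such a pattern was found in 0.618% of 30097 genes in UON and in 2.99% in MON. In UON it had 1.05 and 1.72 CPM in naïve pools (47 and 72 counts) and 5.62 and 11.7 CPM at 3D of crush (253 and 308 counts), with a log2 fold change of 2.60 (SE 0.662). It was not called by edgeR (unadjusted p = 0.00569, adjusted p = 0.955), in a comparison where edgeR called 0 of 21368 genes with 657 at an unadjusted p under 0.05 and DESeq2 called 210 (1.01%). DESeq2 called Eda2r there with an adjusted p of 0.00844. The male pool at 3D of crush, which held the highest Eda2r and Cdkn1a values of UON, had 4.62% of its counts from mitochondrial genes, against 0.621% to 1.39% in naïve UON and 1.58% in the female pool. Without that male pool the estimates were 2.38 for Eda2r and 0.73 for Cdkn1a, against 1.35 for Cdkn1a with it, and neither was called. The part of RNA quality in these values was not tested. The other injured UON pools had 2.18 to 6.56 CPM.

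In MON Eda2r had 2.63 and 1.74 CPM in naïve pools, 6.42 and 8.71 CPM at 3D of crush and 4.73 and 9.93 CPM at 2W. The log2 fold changes were 1.81 (edgeR adjusted p = 0.115, DESeq2 adjusted p = 0.033, where DESeq2 called 12.3% of genes) and 1.69 (edgeR adjusted p = 0.176). Bead-injected MON pools had 3.43 to 7.89 CPM. In retina Eda2r had 23 and 8 counts in the naïve pools, 4 and 9 counts in 2 injured pools and 0 in the other 8, where a count of 0 allows a level of up to 0.055 to 0.116 CPM (3 counts per library, counting error only). Its retinal level was thus too low for a comparison.

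Mdm2, Phlda3, Ccng1 and Aen were not called in any tissue. In MON at 3D of crush all 4 lay above both naïve pools, as did 24.8% of genes tested. Their log2 fold changes were 0.97 for Mdm2 (edgeR adjusted p = 0.169), 0.76 for Ccng1 (0.342), 0.75 for Aen (0.19) and 0.52 for Phlda3 (0.324). The naïve MON pools disagreed for Mdm2 (83.0 and 38.5 CPM) and Ccng1 (121 and 61.9 CPM), with the shallower male pool lower in each. Aen lay above both naïve MON pools (43.8 and 38.1 CPM) in all 10 injured MON pools, which had 44.6 to 81.6 CPM. Of 30097 genes, 2.99% had this pattern in MON. In retina all 5 Aen estimates were above 0, at 0.66 to 0.94, with adjusted p of 0.758 to 0.905, and all 10 injured pools lay near the male naïve pool and above the female one.

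Trp53inp1 and Sesn1 did not follow the other members in MON at 3D of crush. Sesn1 had 106 and 61.2 CPM in naïve pools and 44.6 and 40.9 CPM at 3D of crush, the only member below both naïve pools (29.6% of genes tested lay there), with a log2 fold change of -0.86 (adjusted p = 0.193 by edgeR). At 2W it had 68.5 and 94.9 CPM, between the naïve pools. Trp53inp1 had 22.9 and 15.9 CPM in naïve pools, 16.9 and 14.3 CPM at 3D and 36.7 and 31.6 CPM at 2W, with log2 fold changes of -0.21 (adjusted p = 0.738 by edgeR) and 0.87 (0.186). In UON all 5 Sesn1 estimates were below 0, from -0.59 to -0.08, none with an unadjusted p under 0.05.

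Counted over the members, 7 of 9 lay above both naïve pools in MON at 3D of crush, against 24.8% of genes tested, and 1 below, against 29.6%. At 2W 6 of 9 lay above, against 24.1%, and 0 below, against 23.8%. The median log2 fold change of the members at 3D was 0.76, while the median over all genes tested was -0.0049. In MON after beads 4, 3 and 4 of 9 lay above at 3D, 2W and 6W (18.1%, 20.1% and 20.4% of genes tested), and 0, 2 and 1 below (17.3%, 19.3% and 19.4%). In UON 4 of 9 lay above at both times of crush (17.7% and 20.2%) and 3 at each time after beads (16.6%, 16.5% and 15.4%). Below both naïve pools of UON lay 0 and 2 members at 3D and 2W of crush (18.8% and 24.2%) and 2, 0 and 1 at 3D, 2W and 6W after beads (17.7%, 18.7% and 15.3%). In retina 3 of 8 lay above at both times of crush (18% and 23.2%), and 3, 2 and 1 at 3D, 2W and 6W after beads (18%, 21.2% and 21.1%). Below both naïve retina pools lay 0 members at both times of crush (20.7% and 17.9%) and 0, 1 and 2 after beads (19%, 18.1% and 21.9%). The highest counts above the naïve pools were those of MON after crush, and the counts in retina at 6W after beads were 1 above and 2 below.

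**Figure D4:**
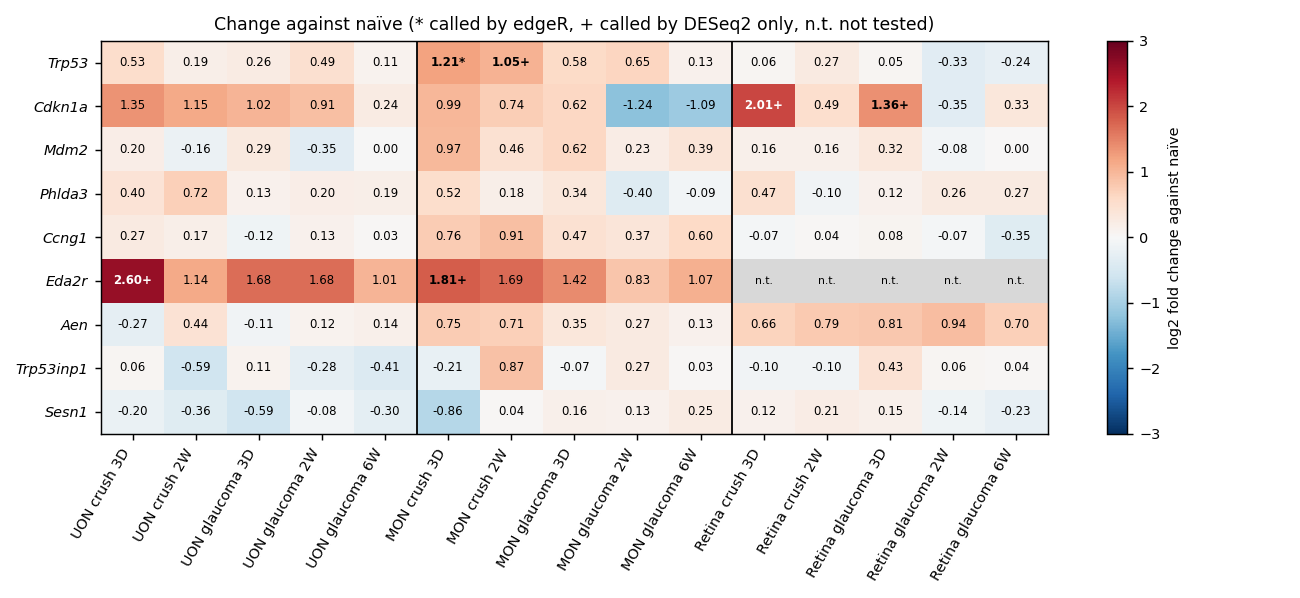
Estimated log2 fold change of each member against naïve tissue (rows) in the 15 combinations of tissue, injury and time (columns), from edgeR, as colour and printed value, with * for a call by edgeR, + for a call by DESeq2 alone and n.t. for not tested. The 1 called value, Trp53 in MON at 3D of crush, is 1.21, and the MON crush columns hold mostly positive values.

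The third comparison set crush against bead injection at the same time within a tissue. Of 54 member tests 8 had an unadjusted p under 0.05, a count not set against the share over all genes. None was called by edgeR, and DESeq2 called 2. Over all genes edgeR called 0% in UON, 0.0162% in MON and 0.0081% in retina at 3D, and 0.0418%, 0.0485% and 0.113% at 2W. In MON at 2W Cdkn1a had 112 and 139 CPM after crush and 37.5 and 29.1 CPM after beads, a log2 difference of 1.92 (SE 0.434, 95% interval 0.80 to 3.03). Its edgeR adjusted p was 0.292, its DESeq2 adjusted p was 0.00323 in a comparison where DESeq2 called 1.8% of genes, and a fit with no filter on low counts gave 0.00236. In MON at 3D Sesn1 had 44.6 and 40.9 CPM after crush and 75.4 and 121 CPM after beads, a log2 difference of -1.13 (95% interval -1.92 to -0.34, edgeR adjusted p = 0.355, DESeq2 adjusted p = 0.0335 where DESeq2 called 3.34% of genes). At 3D the members that lay higher in both crush pools than in both bead pools numbered 2 of 9 in UON (11.9% of genes tested), 1 in MON (17.4%) and 1 in retina (15.8%). Those that lay lower in both numbered, in this order, 0 (11.1%), 1 (24.2%) and 2 (16.1%). At 2W those higher numbered 2 (16.5%) for UON, 7 (18.5%) for MON and 4 (18.9%) for retina, and those lower 1 (18.9%), 0 (20.4%) and 0 (19.3%). The MON count at 2W was thus the highest of the 6.

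Whether a response differed between tissues was tested directly, as the difference of the log2 fold changes. Of 135 member tests 24 had an unadjusted p under 0.05, a count not set against the share over all genes. None was called by edgeR, and DESeq2 called 8, of which 7 were Eda2r with retina at or near a count of 0. The remaining call was Trp53 at 3D of crush, whose response in retina minus that in MON was -1.11 on the log2 scale (SE 0.299, 95% interval -1.94 to -0.28, edgeR adjusted p = 0.152). The DESeq2 adjusted p of this difference was 0.0392. For Cdkn1a the same difference was 1.05 in the other direction (95% interval 0.20 to 1.90, edgeR adjusted p = 0.174). In bead-injected tissue at 2W the Cdkn1a response in MON minus that in UON was -2.08 on the log2 scale (SE 0.574, edgeR adjusted p = 0.872). Over all genes edgeR called 0.016%, 0% and 0.232% for MON minus UON, retina minus UON and retina minus MON at 3D of crush, and 0.004%, 0.023% and 0.24% at 2W. After beads it called 0% in 6 of 9 such comparisons, 0.00374% for retina minus UON at 3D and 0.00753% for retina minus MON at 3D and at 2W. In the 7 comparisons with a DESeq2 call of Eda2r, that tool called 0.715% and 2.61% of all genes for retina minus UON at 3D and 2W of crush, 7.31% and 4.88% for retina minus MON at those times, and after beads 0.673% for retina minus UON at 3D and 0.549% and 1.23% for retina minus MON at 3D and 6W.

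A further 49 genes of the pathway in 6 lists were taken alongside the members: cell cycle arrest, cell death, feedback on p53, repair and metabolism, secreted factors, and p53 relatives with upstream kinases. In naïve tissue 17 of 48 tested differed between UON and retina (35.4%, 12 higher and 5 lower in UON, against 31.7% of all genes), 12 of 48 between MON and retina (25%, against 27.6%) and 6 of 48 between UON and MON (12.5%, against 9.63%). These shares lay near those over all genes, and the genes named next describe single members of the lists. The death receptor Fas was higher than in retina by 5.16 in UON and 3.71 in MON on the log2 scale (edgeR adjusted p of 0.000111 and 0.000427). Igfbp3, a secreted binding protein for insulin-like growth factors, was higher by 4.86 and 3.10. Btg2, an antiproliferative target, had log2 fold changes of -2.47 in UON and -3.37 in MON against retina, and Tigar, which lowers glycolytic flux, had -2.33 and -2.31. Between the nerve regions Thbs1, which encodes thrombospondin 1, was higher in UON by 3.19 and the death-related membrane protein Perp by 1.94, while the kinases Plk3 (-1.94) and Hipk2 (-1.74) were higher in MON.

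After injury, calls in these lists by edgeR were confined to MON after crush among the 15 combinations: 10 of 46 tested at 3D (21.7%, all higher, against 3.61% of all genes higher) and 2 of 46 at 2W (4.35%, both higher, against 2.13%). DESeq2 called 14 higher and 4 lower at 3D (7.56% and 4.78% of all genes) and 9 higher and 2 lower at 2W (5.92% and 3.01%). It also called 2 to 5 of these genes higher in UON at 3D and 2W of crush (0.832% and 1.14% of all genes), in UON at 3D after beads (0.495%) and in MON at 3D and 2W after beads (1.77% and 1.93%), besides 1 lower in MON at 2W after beads (0.715%) and 1 lower in retina at 2W of crush (0.97%). In the list headed cell cycle arrest 5 of 9 were called higher at 3D in MON. This list also holds genes of dividing cells, so the count does not measure arrest. Gtse1, which encodes a microtubule protein of dividing cells that holds p53 down, had 0.589 and 2.10 CPM in naïve pools and 22.0 and 27.4 CPM at 3D, a log2 fold change of 4.46 (SE 0.603, edgeR adjusted p = 0.0133). Ckap2 rose by 4.16 and Psrc1 by 3.43, both encoding spindle proteins, and the kinase Plk2 by 2.42. The fifth, Gadd45a, had an adjusted p of 0.0498.

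Secreted factors gave the highest values. Thbs1 had 1.5 and 2.65 CPM in naïve MON, 279 and 1046 CPM at 3D of crush and 40.1 and 17.1 CPM at 2W, with log2 fold changes of 8.32 (SE 0.868, edgeR adjusted p = 0.0077) and 4.00 (adjusted p = 0.0406). The male pool at 3D was far above the female pool. Gdf15, a stress-induced cytokine, had 0.70 and 0.601 CPM in naïve pools and 14.5 and 18.0 CPM at 3D, a log2 fold change of 4.81 (SE 0.711, edgeR adjusted p = 0.0164). The checkpoint kinase Chek2 rose by 2.17 (adjusted p = 0.0313) and Rap2b, a small GTPase, by 1.5 (adjusted p = 0.0418). By edgeR no gene of the cell death list (10 genes) or the feedback list (5 genes) was called at 3D in MON. Gtse1 was counted in the list for cell cycle arrest and not in the feedback list. DESeq2 called 2 cell death genes higher and 1 feedback gene lower there.

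**Figure D5:**
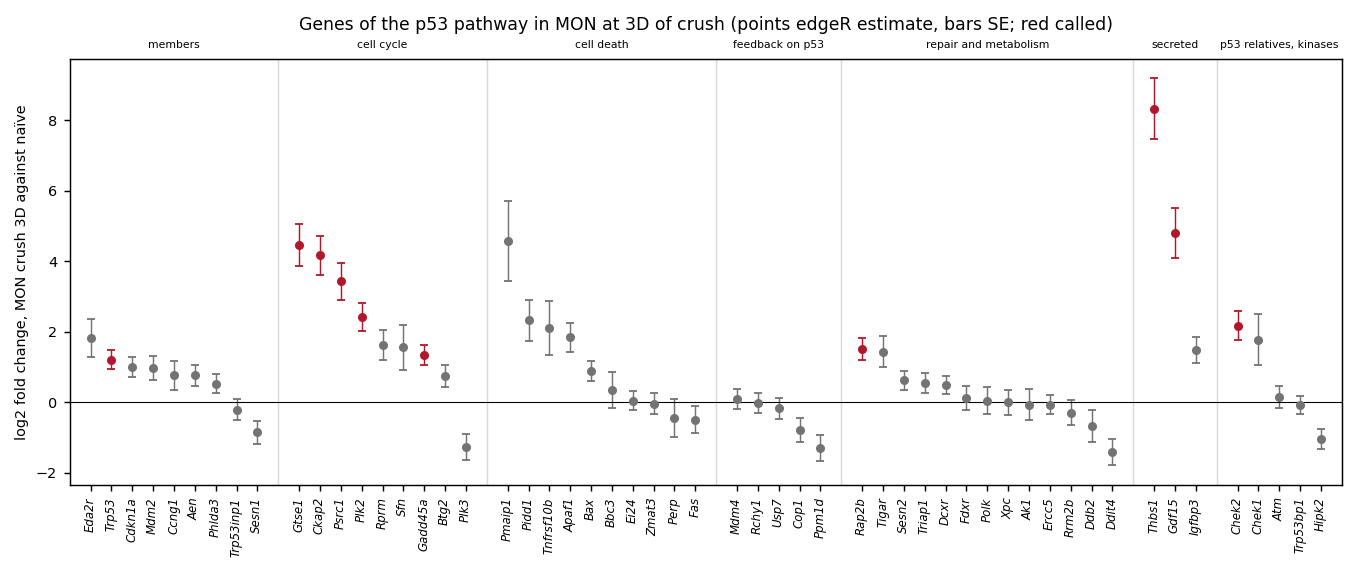
Log2 fold change with its SE for the 9 members and the other tested pathway genes in MON at 3D of crush, grouped by list, with called genes in red and 1 tested gene not drawn. Trp53 is the only red member, and the red genes of the other lists all lie above 0, up to 8.32 for Thbs1.

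Other cells and dividing cells moved in the same libraries. A set of 12 proliferation genes summed to 14.4 to 19.2 CPM in naïve MON and 653 to 761 CPM at 3D of crush, with all 12 called higher and a median log2 fold change of 5.67. The 6 monocyte and neutrophil markers summed to 131 to 173 CPM in naïve MON and 3750 to 7720 CPM at 3D, with Lyz2 and Ccr2 called, and 8 microglia markers to 1300 to 1360 and 2790 to 3310 CPM, with Cd68 called. The 7 oligodendrocyte markers summed to 44200 to 63400 CPM in naïve MON and 26700 to 34700 CPM at 3D, with none called. At 2W of crush in MON the sums were 58 to 122 CPM for proliferation (7 of 12 called higher), 2120 to 8120 CPM for monocytes and neutrophils (Lyz2 and Ccr2 called), 3560 to 5950 CPM for microglia (3 of 8 called higher) and 16400 to 20400 CPM for oligodendrocytes (Mog called lower). In UON at 3D of crush the proliferation genes summed to 515 to 936 CPM against 17.3 to 34.1 in naïve pools, and the monocyte and neutrophil markers to 523 to 2850 CPM against 276 to 315. The share of counts from mitochondrial genes, which can reflect RNA quality, was 0.856% and 1.58% in the naïve MON pools (female and male), 0.441% and 0.0177% at 3D of crush and 0.919% and 0.553% at 2W. With mitochondrial genes left out the Trp53 estimate in MON at 3D remained 1.21 (edgeR adjusted p = 0.0472). The part of cell composition, RNA quality and cell division in the values of Trp53 and the other pathway genes was not tested.

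Across all 36 libraries, after centring within each tissue, the Pearson correlations of log2 CPM between members ranged from -0.32 (Trp53 with Sesn1) to 0.53 over the 36 pairs, and 9 of the pairs were negative. The highest were 0.53 for Cdkn1a with Phlda3, 0.51 for Mdm2 with Ccng1 and 0.49 for Trp53 with Cdkn1a, given as descriptions over libraries that share animals, depth and tissue composition. Pooled values can hide differences between tissues. Cdkn1a with Eda2r had 0.13 over all, but 0.81 in UON, 0.53 in MON and -0.49 in retina. Eda2r with Aen had -0.21 over all, but -0.18 in UON, 0.89 in MON and -0.57 in retina. In retina Eda2r was at a count of 0 in 8 of 12 libraries. Among 13556 other genes, those most like Cdkn1a were Fxyd5 (0.71), Camk1 (0.70) and Eif4ebp1 (0.68). Those most like Eda2r, among 13557 genes, were Slc25a11 (0.57), 1700052K11Rik (0.56) and Ccdc18 (0.56). No member came within the 3 genes most like Cdkn1a or Eda2r. Candidates had to pass a limit on the mean level in each tissue, which Eda2r did not, so it could not appear beside Cdkn1a.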

How the data were processed

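RNA of UON, MON and retina was sequenced in 36 libraries, and 18 groups were formed from the labels by tissue, injury and time, with a female and a male pool in each. Per the labels and methods, the authors mapped read pairs with HISAT2 2.2.1 on GRCm38, assembled them against Gencode annotation with StringTie 1.3.0 and deposited estimated counts per gene and transcript (whole numbers derived from coverage) and FPKM per gene. The deposited FPKM values that lay just below 0 were set to 0. Strand use and the read length given to the count script were not given in the sources used here.

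Counts were tested with edgeR 4.0.16 (R 4.3.3, TMM, genes with at least 10 counts in enough libraries and 15 in all, quasi-likelihood F test) over all genes of a comparison, with Benjamini-Hochberg adjustment; the adjusted p printed are of this fit unless DESeq2 1.42.0 is named. A call needed an adjusted p below 0.05 together with a change of more than 1 on the log2 scale. SEs were taken as the log2 fold change over the root of F. The model was tissue or group plus sex, as in the study for injury against naïve. For differences between tissues each tissue had its own sex term. Those fits had no block for the pool of mice, although the same mice gave all 3 tissues, and the block was run as an alternative. In naïve tissue the sex term is also the replicate block, since the methods state that the same mice gave all 3 tissues. The fits rested on 2 to 6 residual degrees of freedom, and intervals used these alone. The steps were run on simulated data with a known change and a smaller spread between pools than in any fit here. That run checked the size of the estimates, and it does not measure how often calls are right in these data.

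The 9 members were named in every comparison; other listed genes only where called, at most 4 per list by size of change, and the 3 genes most like Cdkn1a and Eda2r by correlation. Gadd45a is an exception, named after its value was seen to complete a count. The values of some listed genes, which stay in the counts, are not reported here. The members and lists were chosen with earlier results of these data known, so they are no independent support for a direction. Alternatives were RLE scaling, no filter, no sex term, mitochondrial genes left out, larger fits, a block for the pool, DESeq2 and leaving out each library.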

Additional observations from a re-analysis of the deposited data

Results flagged for a closer look

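Among the members and listed pathway genes, 1 difference between tissues passed the test. The response of Thbs1 to crush at 3D in retina minus that in MON was -8.58 on the log2 scale (SE 0.973, edgeR adjusted p = 0.0251). This fit had no block for the pool of mice. In MON the female and male pools had 1.5 and 2.65 CPM in naïve tissue and 279 and 1046 CPM at 3D of crush, and in retina they had 2.5 and 2.15 CPM and then 1.90 and 1.86 CPM. The MON value was higher in 2 of 2 pools and the retina value lower in 2 of 2 pools. Markers of monocytes and neutrophils moved in the same MON libraries, from 131 to 173 CPM in naïve pools to 3750 to 7720 CPM at 3D, and their part in the Thbs1 values was not tested.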

How the results depend on the processing

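With 2 pools a group the number of members called depended on the tool more than on the scaling. DESeq2 called 4 members in naïve MON against retina (edgeR 2), 2 in MON at 3D of crush (edgeR 1), and 1 each, where edgeR called 0, in UON at 3D of crush, MON at 2W of crush, retina at 3D of crush, retina at 3D of glaucoma, and MON crush against glaucoma at 3D and at 2W. In the differences between tissues, where edgeR called 0, DESeq2 called 2 for retina minus MON at 3D of crush and 1 each for retina minus UON at 3D and 2W of crush, retina minus MON at 2W of crush, retina minus UON at 3D of glaucoma, and retina minus MON at 3D and 6W of glaucoma. RLE scaling left 0 calls in MON at 3D of crush. Without the filter on low counts 1 member was called in retina at 3D of crush, in MON crush against glaucoma at 2W and in retina minus MON at 3D of crush. Calls over all genes there went from 5 to 53, from 12 to 304 and from 59 to 505. Without the sex term 1 member was called in MON at 2W of crush and in retina minus MON at 3D of crush, and with all 12 libraries of the tissue 1 in MON at 2W of crush. In that order, calls over all genes went from 544 to 951, from 59 to 381 and from 544 to 1050.

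Leaving out 1 library at a time gave 0 to 1 calls for UON against MON (1 with all libraries), 4 to 5 for UON against retina (5), 2 to 3 for MON against retina (2), 0 to 0 for MON at 3D of crush (1), 0 to 2 for MON at 2W of crush (0), 0 to 2 for retina at 3D of crush (0) and 0 to 1 for retina at 2W of crush (0). The lone pool left in a group was assumed to vary like the others. Of 228 other counts 206 were unchanged within 1.5 times, 21 were higher and 1 was lower. No estimate of a member among those alternatives turned direction past a call. In all, 1993 kept their call status, 26 gained a call and 1 lost it, Trp53 in MON at 3D of crush with RLE scaling. Estimates without a call in both fits could change sign and still count among the 1993.

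The replicate block for the pool of mice left all 15 counts for differences between tissues at 0. Taking the block out of the naïve fit left all 3 counts within 1.5 times. It added a call of Eda2r in MON against retina (log2 fold change 2.80, adjusted p = 0.036 by edgeR). Calls over all genes there went from 6532 to 6896. Counts over all genes moved by more than 1.5 times without the filter in 32 of 39 comparisons, with DESeq2 in 37 of 39, without the sex term in 14 of 36, with all 12 libraries in 9 of 15, with the replicate block in 7 of 15, without mitochondrial genes in 4 of 39, and with all 36 libraries in 1 of 3. The causes were not tested. Eda2r had 0 counts in 8 retina libraries, where such a count allows up to 0.055 to 0.116 CPM.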
